A study of Homo sapiens with 23 samples.

Results

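The regions described here are the older and the human-specific arms of one transposon family in NCCITs: 194 SVA-A, SVA-B and SVA-C intervals and 94 SVA-E intervals, chosen by name from the 751 intervals that the study lists as de-repressed SVAs. SVA-A contributed 58, SVA-B 90 and SVA-C 46 intervals. The study chose the 751 for a lack of H3K9me3 in pluripotent cells, so that a low level of this mark in untreated cells belongs to the choice and is given as a description. On the assembled chromosomes of hg19 (GRCh37) lay 156 of the SVA-A to C and 93 of the SVA-E, and the other 39 lay on 8 alternate contigs, 36 of them on haplotypes of chromosome 6.

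NCCIT is an established human embryonal carcinoma line with pluripotent traits. SCi-NCCITs are NCCITs that carry a tetracycline-inducible dCas9-KRAB, a dead Cas9 fused to a repressor domain, on a piggyBac transposon and constitutively express a pair of sgRNAs against SVAs, and were kept under drug selection for both. They were compared without doxycycline and after 72 hours of 2 µg/mL doxycycline. H3K9me3 and YY1 were each profiled in 2 libraries per condition, OCT4 in 1 per condition and RNA in 3 per condition, while 1 further H3K9me3 library came from NCCITs without dCas9-KRAB. No library came from doxycycline-treated cells that lacked the sgRNAs or dCas9-KRAB, so that doxycycline and the recruitment of KRAB cannot be told apart here. The paper states that the sgRNAs also target LTR5Hs, another transposon family. LTR5Hs elements were not analysed here, and their part in the changes with doxycycline was not tested. The labels do not say whether replicates were separate cultures, and p-values measure only the spread between these libraries.

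SVAs are hominid-specific composite retrotransposons built of a CCCTCT-type repeat, an Alu-like part, a GC-rich tandem repeat and a SINE part derived from an endogenous retrovirus. SVA-A to C arose earlier in hominid evolution, and SVA-E is found only in humans. In pluripotent cells KRAB zinc finger proteins such as ZNF91 recruit TRIM28 and SETDB1 to SVAs, which deposit H3K9me3, whereas YY1 is a ubiquitous zinc finger factor and OCT4 a factor of the pluripotency network.

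The sequence of the elements showed where the classes part. ATGGCGG, a core YY1 sequence searched after the peaks had been seen, occurred in both classes, whereas CCATNTT, the YY1 core that the search was set up with, was found in no SVA-E. To compare like with like, elements were aligned to SVA_E_r223, the longest SVA-E interval at 2233 bp, and those that covered its bases 1700 to 1900 were taken. Among these, 85 of 98 SVA-A to C held CCATNTT anywhere in the interval, on either strand (86.7%, 95% Wilson interval 78.6 to 92.1). Of the SVA-E, 0 of 41 did, and a count of 0 allows a share of up to 7.32%. By subfamily, CCATNTT was found in 17 of 18 SVA-A, 52 of 55 SVA-B and 16 of 25 SVA-C. ATGGCGG was found in 84 of 98 SVA-A to C (85.7%) and 38 of 41 SVA-E (92.7%).

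The classes differed at a place in the SINE part, at base 1838 of SVA_E_r223 and onward, shown here with its flanks in lower case for the commonest older and the commonest SVA-E form.
SVA-A to C: gagactCCATTTTgttctg
SVA-E: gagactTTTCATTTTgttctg
The first form was found in 69 of the 98 SVA-A to C, comprising 13 of 18 SVA-A, 44 of 55 SVA-B and 12 of 25 SVA-C. The second was found in 40 of the 41 SVA-E and in 157 of 179 SVA-D and SVA-F. Another form, gagactTCATTTTgttctg, was found in 5 of the 25 SVA-C. For all listed SVAs that cover the site, of every subfamily, the share with CCATNTT anywhere in the interval was 28.6% (91 of 318). Windows of 300 bp around YY1 summits are another measure and can reach beyond an SVA. In the libraries without doxycycline, 50.9% and 59.5% of such windows over all YY1 peaks held CCATNTT. For peaks on SVA-A to C these were 25 of 32 (78.1%) and 33 of 42 (78.6%), and on SVA-E 1 of 4 and 0 of 4. A match is a run of letters and not a measured site. The octamer ATGCNAAT was found in 0 of the 156 SVA-A to C and 0 of the 93 SVA-E on assembled chromosomes, on either strand. It was also found in 0 of all 635 listed SVAs there, so that its absence does not set these classes apart. Of the 300 bp windows around all OCT4 summits without doxycycline, 17.0% held it. The paper reports OCT4 motifs in part of the de-repressed SVAs by another motif search, which was not repeated here.

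The intervals differed in length and in how far their sequence can be told from the rest of the genome. The SVA-A to C intervals ranged from 12 to 1920 bp with a median of 654, and SVA-E from 11 to 2233 bp with a median of 833, a difference of 179 bp. SVA-E held more fragments, since 30 of 94 were shorter than 200 bp (31.9%) against 29 of 194 older ones (14.9%), and 42 SVA-E lay within 2000 bp of another listed SVA against 16 older ones. Joined over such gaps, the 94 SVA-E intervals made up 77 loci and the 194 older ones 188. On assembled chromosomes the median GC content was 52.5% in SVA-A to C and 63.5% in SVA-E, with 3.02 and 5.03 CpG per 100 bp.

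SVA-E was the less unique class. A 100-mer here is each run of 100 bases of an SVA, called unique when it occurs at no other place in hg19 on either strand. Among intervals of at least 100 bases, the median share of unique 100-mers was 78.1% in 145 SVA-A to C (quartiles 57.7 and 94.6) and 30.3% in 75 SVA-E (quartiles 9.23 and 42.8). Under 50% of the 100-mers were unique in 26 of the 145 and in 63 of the 75. Since the authors kept only reads of high mapping quality, the difference between the classes is given below also for intervals with at least 50% unique 100-mers, and the part of uniqueness in the differences between the classes was not otherwise tested.

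**Figure D1:**
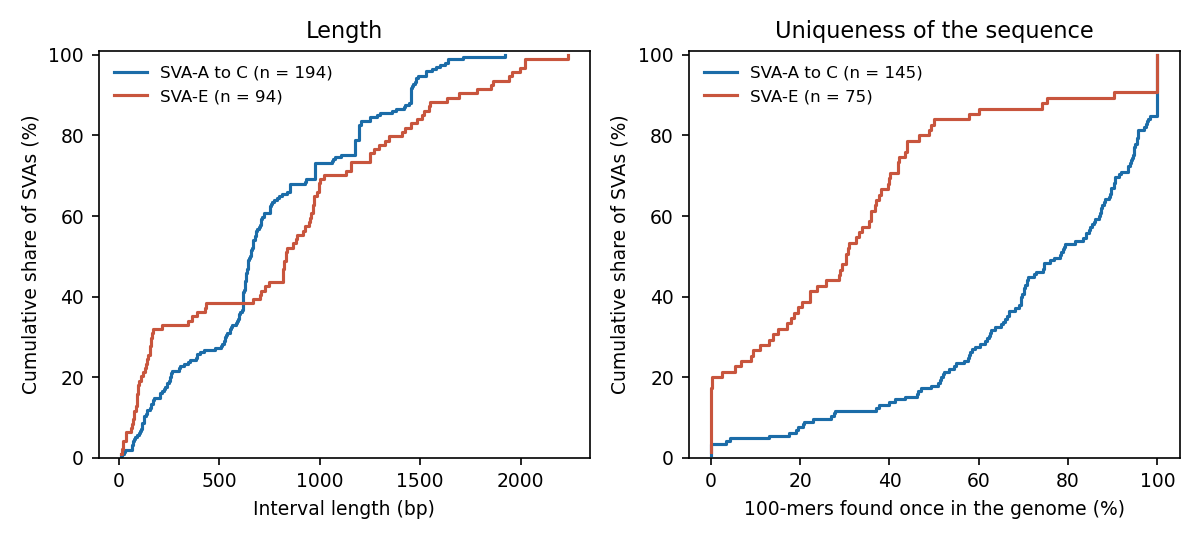
Cumulative share of SVA-A to C and SVA-E intervals by length in bp (left, 194 and 94 intervals) and by the percent of their 100-mers that occur at a single place in hg19 (right, 145 and 75 intervals). SVA-E has more intervals under 200 bp and its curve of unique 100-mers rises far to the left, with medians of 30.3% against 78.1%.

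SVA-E lay within genes more often than the older elements. By GENCODE v44lift37, 58 of 93 SVA-E (62.4%, 95% Wilson interval 52.2 to 71.5) and 71 of 156 SVA-A to C (45.5%, 37.9 to 53.3) lay within an annotated gene, a difference of 16.9 percentage points (95% Newcombe interval 4.03 to 28.8). Protein-coding genes held 42 SVA-E (45.2%) and 43 SVA-A to C (27.6%). Of the 386 SVA-D and SVA-F, 57.8% lay in a gene and 45.9% in a protein-coding gene, and of all 635 SVAs 55.4% and 41.3%, so that the older class stood below the others. By subfamily, 44.7% of SVA-A, 42.5% of SVA-B and 55.2% of SVA-C lay in a gene. SVA-E were intronic in 55 cases, overlapped an exon in 3 and were intergenic in 35, and the older ones were intronic in 66, exonic in 5 and intergenic in 85. An SVA ran in the direction of its protein-coding host in 11 of 41 SVA-E and 12 of 36 SVA-A to C for which a strand could be given. The median distance to the nearest transcription start site was 6770 bp for SVA-E (quartiles 2498 and 15559) and 8383 bp for SVA-A to C (quartiles 3347 and 19654). The Wilson and Newcombe intervals cover counting error over elements only, and pieces of the same locus count in them as separate elements.

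H3K9me3, the repressive mark that recruited KRAB is known to induce, was called on a smaller share of SVA-E than of SVA-A to C in both libraries with doxycycline. Without doxycycline the share was higher in SVA-E in one library and about the same in the other. In NCCITs without dCas9-KRAB, 5 of 194 SVA-A to C carried a peak (2.58%) and 0 of 94 SVA-E, which allows a share of up to 3.19%. In SCi-NCCITs without doxycycline, 44 older elements carried a peak in the first library (22.7%) and 14 in the second (7.22%), and 33 SVA-E in the first (35.1%) and 6 in the second (6.38%). With doxycycline, 98 (50.5%) and 89 (45.9%) of the 194 older elements carried a peak, and 40 (42.6%) and 25 (26.6%) of the 94 SVA-E. For SVA-A to C both treated libraries lay above both untreated ones, and for SVA-E the first untreated library lay above the second treated one.

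On average over libraries, the share of SVA-A to C with H3K9me3 went from 14.9% ± 10.9 (SD, n = 2) to 48.2% ± 3.28, a difference of 33.2 percentage points (exact permutation test over libraries, two-sided p = 0.33, the smallest that 2 against 2 allow). For SVA-E it went from 20.7% ± 20.3 to 34.6% ± 11.3, a difference of 13.8 points (exact permutation p = 0.67). The per-library difference between the classes, SVA-E minus SVA-A to C, went from 5.80 to -13.6 points, a change of -19.4 (exact permutation p = 0.33, again the smallest possible). No design of this size can pass 0.05. In the treated libraries the share of SVA-E minus that of SVA-A to C was -7.96 points (95% Newcombe interval -19.7 to 4.31) and -19.3 points (-29.8 to -7.38). On assembled chromosomes the mean difference over both libraries was -24.7 points, and for intervals with at least 50% unique 100-mers, an alternative chosen after the data had been seen that left 119 SVA-A to C and 12 SVA-E, it was -49.7 points. H3K9me3 was then on 81 and 77 of the 119 SVA-A to C (68.1% and 64.7%) and on 2 and 2 of the 12 SVA-E (16.7% in each). Of these 12, 6 were under 200 bp against 13 of the 119, so that uniqueness and length cannot be told apart there.

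Element by element, 47 of 194 SVA-A to C (24.2%) and 8 of 94 SVA-E (8.51%) carried H3K9me3 in both treated libraries and in neither untreated one, against 18.1% of all 751 SVAs. The mark was present in all 4 SCi-NCCIT libraries on 8 older elements and 4 SVA-E, and in none of the 4 on 87 and 48. No peak of any of the 11 libraries was found on 83 SVA-A to C (42.8%) and 46 SVA-E (48.9%), and on 46 of 156 (29.5%) and 45 of 93 (48.4%) on assembled chromosomes. Of the 39 members on alternate contigs, 1 had an H3K9me3 peak in the first treated and 1 in the first untreated library, and these contigs held between 3 and 13 H3K9me3 peaks in all per library. Among the older subfamilies, H3K9me3 was on 52 and 51 of 90 SVA-B after doxycycline (57.8% and 56.7%), 24 and 23 of 58 SVA-A (41.4% and 39.7%) and 22 and 15 of 46 SVA-C (47.8% and 32.6%). Since 37% of SVA-C lay on alternate contigs, the order differed on assembled chromosomes, with 65% and 63.8% of 80 SVA-B, 51.1% and 48.9% of 47 SVA-A and 72.4% and 51.7% of 29 SVA-C. Peaks on SVA-A to C covered a median of 100% of the interval in both treated libraries, and those on SVA-E 62.3% and 39.8%. Among elements that cover the SINE site, 78 and 69 of 98 SVA-A to C (79.6% and 70.4%) were marked with doxycycline, and 28 and 18 of 41 SVA-E (68.3% and 43.9%). Without doxycycline 37 and 11 of these SVA-A to C (37.8% and 11.2%) were marked, and 24 and 5 of these SVA-E (58.5% and 12.2%). For SVA-E the first untreated library again lay above the second treated one. Of 179 SVA-D and SVA-F that cover the site, 75.4% and 63.1% were marked with and 51.4% and 12.3% without doxycycline. The sites of the sgRNAs within the members were not analysed here.

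YY1 was found on a larger share of SVA-A to C than of SVA-E, with and without doxycycline. Without doxycycline, 32 (16.5%) and 42 (21.6%) of 194 SVA-A to C carried a YY1 peak, and 4 and 4 of 94 SVA-E (4.26% in each library). The share of SVA-E minus that of the older class was -12.2 points (95% Newcombe interval -18.6 to -4.56) and -17.4 points (-24.2 to -9.31). Present in both libraries, YY1 was on 28 of 194 SVA-A to C (14.4%) and 3 of 94 SVA-E (3.19%), against 8.66% of all 751 SVAs. The same order held among elements that cover the SINE site, where 27 and 35 of 98 SVA-A to C (27.6% and 35.7%) and 3 and 4 of 41 SVA-E (7.32% and 9.76%) carried a peak. Of the SVA-D and SVA-F that cover it, most of which hold the SVA-E form, 41 and 31 of 179 did (22.9% and 17.3%). The part of CCATNTT in these shares was not tested. For the 119 SVA-A to C and 12 SVA-E with at least 50% unique 100-mers the mean difference was -21.9 points, beside -14.8 over all. It rests on peaks on 26 and 36 of the 119 and on 0 and 1 of the 12. Since 6 of these 12 were under 200 bp against 13 of the 119, uniqueness and length cannot be told apart here either.

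The older elements that cover the site were split by CCATNTT anywhere in the interval, and not by the form at the compared site. YY1 peaks without doxycycline were about as frequent with CCATNTT (23 and 31 of 85, 27.1% and 36.5%) as without it (4 and 4 of 13, 30.8% in each). The 13 elements give intervals from 12.7% to 57.6%. With doxycycline the shares were 30.6% and 41.2% of the 85 elements with CCATNTT, and 1 (7.69%) and 2 (15.4%) of the 13 without. These groups were formed after the peaks had been seen and were not tested.

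On the coordinates of SVA_E_r223, the median YY1 summit of SVA-A to C lay at base 1799 and 1777 in the libraries without doxycycline and at 1770 and 1811 with it. In SVA-E the medians without doxycycline were 1749 and 1723, over 3 and 4 summits. Single YY1 summits lay far upstream, the lowest at base 949 in SVA-A to C and 1199 in SVA-E, both in the first treated library. OCT4 summits without doxycycline lay further downstream, between 1934 and 2134 in 11 SVA-A to C and at 1985 and 2044 in 2 SVA-E.

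YY1 peaks on SVA-A to C were not fewer after doxycycline by a count over the lists as deposited. With doxycycline, 31 (16%) and 44 (22.7%) of 194 SVA-A to C and 6 (6.38%) and 1 (1.06%) of 94 SVA-E carried a peak. The share of SVA-A to C averaged 19.1% ± 3.64 (SD, n = 2) without and 19.3% ± 4.74 with doxycycline, a difference of 0.258 points (exact permutation p = 1.00). For SVA-E the averages were 4.26% ± 0 and 3.72% ± 3.76, a difference of -0.532 points (exact permutation p = 1.00), and the change differed between the classes by -0.790 points (exact permutation p = 1.00). For the 461 SVA-D and SVA-F the share was 10.5% ± 2.30 and 4.45% ± 0.767, and the change of SVA-A to C differed from theirs by 6.33 points (exact permutation p = 0.67). Within the older class, the change was -1.72 points in SVA-A, 4.44 in SVA-B and -5.43 in SVA-C, where both treated libraries (10.9% in each) lay below both untreated ones (17.4% and 15.2%).

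That count depends on how many peaks a list holds. The YY1 lists held 56370 and 76098 peaks without doxycycline and 82005 and 115673 with it. When each list was cut to the 56370 peaks of smallest p-value, the change in the share of SVA-A to C with doxycycline was -9.28 points (exact permutation p = 0.33), and when at least 50% of the interval had to be covered it was -4.64 points (exact permutation p = 0.33). Of the 28 SVA-A to C with YY1 in both untreated libraries, 24 had a peak in at least 1 treated library and 4 in neither, while 4 others carried YY1 in both treated libraries only. For the 19 with a peak in all 4 libraries, the fold enrichment was lower in both treated libraries than in both untreated ones in 8 and higher in 1. Among all 32 listed SVAs with such peaks it was lower in 18 and higher in 2, and among the 12 SVA-D and SVA-F in 9 and 1. The median fold enrichment of the 19 SVA-A to C was 5.81 and 6.78 without and 5.14 and 5.49 with doxycycline, and over all YY1 peaks of the lists it was 5.32 and 5.38 without and 5.14 and 5.19 with it. Of the 25 SVA-A to C with YY1 in both treated libraries, 22 also carried H3K9me3 in both treated libraries, measured in separate ChIP-seq libraries of the whole population. H3K9me3 in both treated libraries was on 83 of all 194 SVA-A to C (42.8%) and 267 of all 751 SVAs (35.6%), and on 10 of the 12 SVA-D and SVA-F with YY1 in both treated libraries.

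OCT4 was rare in both classes. Without doxycycline, 13 of 194 SVA-A to C (6.70%) and 4 of 94 SVA-E (4.26%) carried an OCT4 peak in 1 library, a difference of -2.45 points for SVA-E (95% Newcombe interval -7.57 to 4.32). With doxycycline, 0 of 194 SVA-A to C carried one, which allows a share of up to 1.55%, and 2 of 94 SVA-E did, namely SVA_E_r223 and SVA_E_r168. The OCT4 lists held 50775 peaks without and 23352 with doxycycline, and with 1 library per condition there is no replicate check.

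YY1 in both untreated libraries together with OCT4 was found on 10 SVA-A to C and 2 SVA-E. The highest YY1 fold enrichment was that of SVA_B_r419 (667 bp, chr17:74632701-74633367, plus strand), in an intron of ST6GALNAC1 and of the RNA gene SNHG16 and 6375 bp from the nearest start site. Its YY1 fold enrichment was 15.6 and 15.8 without and 7.59 and 7.51 with doxycycline, its OCT4 5.62 without and no peak with it, and its H3K9me3 15.6 and 14.3 with and no peak without. SVA_C_r30 (1474 bp, chr2:11304662-11306135, minus strand) lay in an intron of SLC66A3. Its YY1 fold enrichment went from 8.32 and 15.1 to 5.15 and 4.31, and H3K9me3 from no peak to 12.1 and 8.16. SVA_A_r68 (512 bp, chr5:74906661-74907172, minus strand) overlapped an exon of ANKDD1B and held an annotated start site of that gene. Its YY1 fold enrichment was 6.40 and 10.4 without and 5.89 and 8.43 with doxycycline, and its H3K9me3 5.93 and 7.31 with doxycycline only.

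Of the 8 SVA-A to C with the highest YY1 fold enrichment in this group, 8 carried H3K9me3 in both treated libraries, beside 42.8% of all SVA-A to C, and 0 had an OCT4 peak with doxycycline, as was the case for all 194 SVA-A to C. SVA_E_r223 (2233 bp, chr20:4012514-4014746, plus strand) went another way. Its YY1 fold enrichment was 6.98 and 7.0 without and 6.85 and 6.34 with doxycycline, and OCT4 went from 21.6 to 13.6. H3K9me3 was called on it in both untreated libraries (5.73 and 9.56), in the first treated one (6.74) and not in the second. It was intergenic, 16309 bp from the nearest start site of a protein-coding gene, that of RNF24. SVA_A_r245, a listed SVA 530 bp from it, carried YY1 in all 4 libraries. SVA_E_r90 (967 bp, chr5:40800925-40801891) had a YY1 fold enrichment of 7.58 and 5.53 without and 5.48 and no peak with doxycycline, and H3K9me3 of 8.68 and 7.53 with it only. A second listed SVA interval lay 57 bp from it.

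Of the tested genes nearest to SVA-A to C, 13 of 43 were lower with doxycycline, 2 were higher and 28 did not pass the test, and of those nearest to SVA-E, 4 of 30 were lower and 3 higher. In bulk RNA, fewer cells of a type and less RNA per cell cannot be told apart. The 156 SVA-A to C had 150 distinct nearest genes, of which 43 passed the filter on low counts and 15 were called by edgeR's quasi-likelihood test at an adjusted p of 0.05. The 28 that were not called had log2 fold changes from -0.64 to 0.34. The 93 SVA-E had 78 nearest genes, 30 passed, and 7 were called. Among all 16371 genes tested, 17.5% were called, 8.48% lower and 8.97% higher. The median log2 fold change was -0.12 over the 43 genes and -0.03 over the 30, beside -0.003 over all genes tested. A gene can pass the filter through the untreated group alone, so these counts are a description. With at least 10 counts required in every sample they were 14 of 41 (12 lower) and 7 of 30 (4 lower). Without a filter on low counts they were 14 of 66 (12 lower) and 9 of 37 (6 lower). By DESeq2 they were 15 of 97 (13 lower) and 9 of 45 (6 lower). The called share thus depends on the filter, and the share over all genes is not given here for these settings. With intervals of at least 200 bp only, 13 of 35 genes nearest to SVA-A to C and 4 of 19 nearest to SVA-E were called. All of these were lower, in both classes. The difference between the classes was not tested.

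The SVA-E count rests on small changes. Without the second untreated RNA library only 2 nearest genes of SVA-E were called, 3 without the third untreated one and 4 without the first or the second treated one. When start sites of protein-coding genes alone were used, 31 of 109 nearest genes of SVA-A to C were called (28.4%, 27 lower) and 18 of 63 of SVA-E (28.6%, 12 lower). The called shares were then about equal, and the median log2 fold change was -0.09 in both classes. Where the older SVA had gained H3K9me3 in both treated libraries and neither untreated one, 15 nearest genes were tested, 7 were called and lower and 0 called and higher, and for the other older SVAs 8 of 29 were called, 6 lower, a gene nearest to SVAs of both kinds counting in each. Of the 11 tested genes nearest to SVA-A to C with YY1 in both untreated libraries, 7 were called and lower. Protein-coding genes that contain an older SVA were called in 11 of 41 tested cases, all lower, and those that contain an SVA-E in 7 of 33, 3 lower. Beside all of these counts, 17.5% of all genes tested were called and 8.48% were called lower.

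ST6GALNAC1, a sialyltransferase that makes the sialyl-Tn antigen, contains SVA_B_r419. Its level was 0.886, 1.10 and 0.697 CPM, that is counts scaled to the size of the library, in the libraries without doxycycline and 0.0889, 0.105 and 0.106 with it. The log2 fold change was -3.11 (SE 0.340, adjusted p = 0.000429, edgeR). This gene passed the filter on low counts through the untreated libraries alone and was not tested where 10 counts were required in every sample, so that the size of its change is uncertain. ANKDD1B, with an annotated start site in SVA_A_r68, was measured over all its transcripts at 3.95, 3.91 and 3.81 CPM without and 0.778, 0.775 and 0.510 with doxycycline. It fell by 2.49 on the log2 scale (SE 0.187, adjusted p = 4.19e-05, edgeR). CORO1A encodes coronin 1A, an actin-binding protein, and lies 23.7 kb from SVA_A_r214, an SVA with H3K9me3 in the first library of each condition and no YY1 peak. Its CPM were 6.54, 5.65 and 4.48 without and 1.04, 0.984 and 1.21 with doxycycline, a log2 fold change of -2.34 (SE 0.178).

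SLC66A3, the host of SVA_C_r30, was expressed at a higher level than these. Its CPM were 124, 126 and 113 without and 44.8, 43.6 and 38.6 with doxycycline, well apart, and it fell by 1.52 on the log2 scale (SE 0.0719, adjusted p = 2.14e-06, edgeR). ASH2L, a subunit of complexes that methylate H3K4, hosts SVA_C_r135, whose YY1 and OCT4 peaks were present in untreated cells only. Its CPM were 240, 236 and 220 without and 121, 116 and 114 with doxycycline, a log2 fold change of -0.99 (SE 0.0563, adjusted p = 7.90e-06, edgeR). AARS2, the mitochondrial alanyl-tRNA synthetase, lies 3722 bp from SVA_A_r80 and was measured at 62.9, 60.6 and 51.1 CPM without and 32.5, 32.1 and 33.9 with doxycycline. It fell by 0.82 on the log2 scale (SE 0.0795). TUBB4A, a beta-tubulin 10.4 kb from SVA_B_r437, went from 36.2, 40.0 and 36.3 CPM to 18.3, 15.8 and 15, a log2 fold change of -1.20.

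Of the other called genes near older elements, NMUR1, a receptor of neuromedin U, had a log2 fold change of -1.26 (adjusted p = 0.0223, edgeR). Its adjusted p by edgeR was 0.0665 without the second treated and 0.0556 without the second untreated library. SHANK2, a postsynaptic scaffold, was at -0.66, BCOR, a corepressor of BCL6, at -0.59 and SRSF10, a splicing factor, at -0.52. SVA_C_r3, the SVA nearest to SRSF10, had no peak in any of the 11 libraries, and 3.47% of its 100-mers were unique. The remaining 3 called genes, TAF1 (-0.26), PARD3 (-0.21) and KEAP1 (0.22), had smaller changes and are named here to complete the 15. The homeobox gene PRRX2 was higher, at 0.51, beside SVA_B_r239 and SVA_B_r240, fragments of 91 and 16 bp without a peak in any library.

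Among the called genes near SVA-E, the largest change was that of DERA, a deoxyribose-phosphate aldolase. Its intronic SVA_E_r168 (365 bp, chr12:16064951-16065315) lies 654 bp from the nearest annotated start site. That SVA carried H3K9me3 in both treated and neither untreated library, OCT4 in both conditions and no YY1. DERA was measured at 96.5, 88.7 and 93.0 CPM without and 47.9, 48.0 and 48.1 with doxycycline. It fell by 0.95 on the log2 scale (SE 0.0525, adjusted p = 6.17e-06, edgeR). The remaining 6 were small: ZZZ3, a subunit of a histone acetyltransferase complex, at -0.34, the H3K27 demethylase gene KDM6A at -0.30, the guanine nucleotide exchange factor gene VAV2 at -0.28, RCC1L at 0.25, the anion transporter gene SLC26A11 at 0.28 and RND2 at 0.32. The SVA-E nearest to ZZZ3, VAV2, RCC1L and SLC26A11, of 387, 214, 169 and 76 bp, had no peak in any of the 11 libraries. Each of these 6 lost its call when at least 1 of the 6 RNA libraries was left out. RNF24, the protein-coding gene nearest to SVA_E_r223 and named for that, was at 40.1, 44.6 and 45.4 CPM without and 29.4, 29.1 and 30.2 with doxycycline, a log2 fold change of -0.56 (SE 0.0639, adjusted p = 0.000541, edgeR).

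Of 14 genes of SVA silencing, 3 were called, all lower with doxycycline, beside 17.5% of all genes called and 8.48% called lower: MPHOSPH8 of the HUSH complex (-0.66), the DNA methyltransferase gene DNMT3B (-0.60) and the zinc finger gene ZNF611 (-0.51). ZNF91 was at -0.14 (adjusted p = 0.418, edgeR). Of 6 genes for factors on SVAs, ZFP42 (-0.40) and NANOG (-0.57) were lower, while YY1 was at -0.10 (adjusted p = 0.202) and POU5F1, which encodes OCT4, at -0.12 (adjusted p = 0.527, edgeR). Among 9 pluripotency markers, 5 were lower, with TDGF1 at -1.13, and their summed level was 3440 to 3756 CPM without and 2727 to 2981 with doxycycline. Of 10 markers of other cells, 6 passed the filter, and GATA6 was higher at 1.46, from 0.963 to 2.60 CPM. The summed level of these 6 was 18.7 to 26.1 CPM without and 21.9 to 26.9 with doxycycline, and AFP, SOX17, TBXT and NEUROD1 had at most 10 counts in any library. The part of these shifts in the results above was not tested.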

How the data were processed

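H3K9me3, YY1 and OCT4 ChIP-seq (11 libraries) and RNA-seq (6 libraries) of NCCITs and SCi-NCCITs were used, with conditions taken from the labels and dose and time from the labels' protocol. ChIP-seq libraries whose label had no number were called replicate 1. HiChIP contacts of 6 more samples were left out, since their columns could not be matched to samples.

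For ChIP-seq, the authors aligned reads to hg19 with BWA, kept those of high mapping quality, removed duplicates and called peaks per library. The peak caller is not given in the sources used here. Each deposited list holds a fold enrichment over background (a ratio) per peak, with −log10 of its p-value and of its q-value. They give no read depth, so the depth behind a peak is unknown, and 95% Wilson and Newcombe intervals cover counting error over SVAs only. A member carried a peak when both shared at least 1 bp.

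For RNA-seq, the authors ran kallisto, and each deposited table has estimated counts and TPM by transcript. TPM were not tested. Transcripts were assigned to genes of GENCODE v44lift37, their estimated counts added up and rounded. The quasi-likelihood test of edgeR 4.0.16 (R 4.3.3) followed, with TMM scaling, the default filter on low counts and adjustment by Benjamini-Hochberg over every gene tested, at a threshold of 0.05. Between 95.85% and 95.96% of the counts were placed in a gene. Totals were 14683302 to 47862233 counts per library. DESeq2 1.42.0 was an alternative. The fit was tested on simulated data.

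SVA coordinates came from the study's list, annotation and nearest start sites from GENCODE, and alignments to SVA_E_r223 from BLAST 2.17.0. Other steps used Python 3.11.15, pandas 2.3.3, numpy 2.4.6, matplotlib 3.10.9 and bedtools 2.31.1. Each SVA was given the gene whose start site lay closest to it. Named genes were the called nearest genes, at most 12 per class by size of change, RNF24 and 2 gene lists. Named SVAs carried YY1 in both untreated libraries and OCT4, at most 8 per class. Longer stretches of sequence around YY1 summits are not reported here. Members and lists were chosen with earlier results of these data known. Alternatives covered peak thresholds, overlap, interval length and chromosome, list size, count filters, scaling, the replicate block and left-out libraries. Joining intervals within 2000 bp and requiring 50% unique 100-mers were added after seeing the data.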

Additional observations from a re-analysis of the deposited data

How the results depend on the processing

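Peak lists carry no depth, only 1 OCT4 library per condition exists, and 2 against 2 libraries cannot reach a p under 0.33, so that these comparisons are descriptions. For H3K9me3 with doxycycline, SVA-E minus SVA-A to C was -13.6 points as reported, -24.7 on assembled chromosomes, -23.2 with at least 50% of the interval covered and -49.7 with at least 50% unique 100-mers. For YY1 without doxycycline it was -14.8, -19.4 on assembled chromosomes, -10.7 at a −log10 q of at least 5 and -21.9 with unique 100-mers. The change of YY1 on SVA-A to C turned from 0.258 to -4.64 points with 50% covered and -9.28 with equal list sizes, and ran from -0.515 to 1.03 with a replicate left out. On SVA-E it ran from -3.19 to 2.13. The difference between the classes in the YY1 change turned from -0.790 to 3.58 with 50% covered and 8.21 with equal list sizes, and ran from -4.22 to 2.64 with a replicate left out. The cause was not tested. Changes of H3K9me3 kept their direction under all alternatives run. A left-out replicate was there dropped by its number from both conditions together, although the labels do not pair the ChIP-seq libraries. Leaving out a single ChIP-seq library was not among these alternatives. For H3K9me3 on SVA-E, the first untreated library (35.1%) lay above the mean of the treated ones (34.6%), so that direction is not secure. The difference in median length was 205 bp on assembled chromosomes and 287 bp for intervals of at least 200 bp.

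Nearest genes called numbered 31 and 18 with protein-coding start sites only, and 13 and 4, all lower, with intervals of at least 200 bp. With a library left out they ran from 11 to 15 and from 2 to 7. With the replicate number as a block, 16 and 10 were called instead of 15 and 7. Deviations of same-numbered RNA libraries correlated at 0.291, 0.0879 and -0.0138, and only replicate 1 matched its own number best, so the samples share only a number.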
